A study of Mus musculus with 6 samples.

Results

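The genes described here encode the oxygen-sensing core of the hypoxia-inducible factor (HIF) pathway. They are the prolyl hydroxylase genes Egln1 (PHD2), Egln2 (PHD1) and Egln3 (PHD3), the asparaginyl hydroxylase gene Hif1an (factor inhibiting HIF), the alpha subunit genes Hif1a, Epas1 (HIF-2 alpha) and Hif3a, their shared partner gene Arnt, and Vhl. They were taken by name, and every array probe whose RefSeq accession maps to a listed gene was used. These 9 genes had 16 of the 55608 probes kept from the array, each with 1 spot per array, and all 9 were among the 20014 genes and unnamed features tested. Gene expression was measured with 1-colour Agilent mouse arrays in hearts of C57/B6 mice aged 8 weeks, 1 array per heart. The 3 control hearts carried floxed alleles of PHD2 and PHD3 without Cre (genotype PHD2/3f/f; Cre-/-). The 3 hearts labelled PHD2/3 KO carried the same floxed alleles with Cre (PHD2/3f/f; Cre+/-) and are called KO-labelled here. Both groups therefore carry the floxed alleles, no Cre-only control was analysed here, and the labels name neither the promoter that drives Cre nor the deleted exons. The title of the series sets the question as how PHD2 and PHD3 act on thyroid hormone receptor alpha and phospholamban in the heart.

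In the presence of oxygen, the prolyl hydroxylases modify 2 prolines of an alpha subunit, which lets VHL, the recognition subunit of a ubiquitin ligase, send it to the proteasome. Factor inhibiting HIF modifies an asparagine and blocks recruitment of coactivators. When hydroxylation fails, the alpha subunit pairs with ARNT and binds hypoxia response elements, whose core is ACGTG or GCGTG. Egln1 and Egln3 are known targets of this pathway, so that it feeds back on its own sensors. Control of the alpha subunits acts mainly on the protein, and these arrays measured RNA.

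The 250 bases before the start of Egln1 and of Egln3 are shown because these are the targeted genes and their RNA moved in opposite directions. They are from RefSeq on GRCm38.p6, written 5′ to 3′ on the minus strand of each gene, with every ACGTG or GCGTG, searched on both strands, in capitals. The Egln1 window is chr8:124949255-124949504 and the Egln3 window is chr12:54203875-54204124.
Egln1: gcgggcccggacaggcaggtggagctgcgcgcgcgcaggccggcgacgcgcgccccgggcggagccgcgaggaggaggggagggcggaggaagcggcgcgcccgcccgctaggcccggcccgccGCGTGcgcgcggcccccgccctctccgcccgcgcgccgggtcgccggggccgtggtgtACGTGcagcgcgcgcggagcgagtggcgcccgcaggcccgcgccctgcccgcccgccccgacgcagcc
Egln3: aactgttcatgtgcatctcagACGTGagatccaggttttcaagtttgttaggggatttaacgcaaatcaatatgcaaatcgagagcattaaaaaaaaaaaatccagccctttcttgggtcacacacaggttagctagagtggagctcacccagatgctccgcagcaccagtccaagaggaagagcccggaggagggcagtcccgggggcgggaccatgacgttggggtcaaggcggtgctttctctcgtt
The Egln1 window held 1 ACGTG, at position -68 from the gene's start, and 1 GCGTG at -126. The Egln3 window held 1 ACGTG, at -229. Of 32851 such windows of all genes, 16.6% held ACGTG on either strand, 28.2% held GCGTG and 38.6% held at least 1 of them. Among the 9 genes, 8 had a window and 6 of these had at least 1 of the motifs (Egln1, Egln2, Egln3, Hif1a, Hif3a and Arnt), while the windows of Hif1an and Vhl had none of these letters. These matches describe the letters in the windows and are not evidence of binding. The 8 genes had 9 windows, so a count of genes is not in the same unit as the shares over all windows. The Hif1a window (chr12:73907617-73907866) lies inside the span given for that gene below. The Arnt window (chr3:95434140-95434389) reaches into the span of Arnt.

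Signal is given throughout as log2 of the scanner's processed signal relative to the 75th percentile of the same array, and all changes are KO-labelled minus control. By limma, at 0.05 after adjustment by Benjamini and Hochberg's method over all genes and features, 1 of the 9 genes rose (Egln3), 3 fell (Egln1, Hif1an and Epas1) and 5 did not pass (Egln2, Hif1a, Hif3a, Arnt and Vhl). Of all genes and features, 39.1% passed, 16.1% higher and 23.0% lower, so 4 of 9 is a share near that of the whole array. The median log2 difference of the 9 genes was -0.27, against -0.11 over all genes and features. The groups did not overlap for 6 of the 9 genes, against 55.9% of all genes and features. The 6 arrays shared 1 slide and 1 scan. A number in each array's barcode was 1 for every control and 2 for every KO-labelled array, so that what it encodes and genotype cannot be told apart. Whether it gives a row or a column of the slide was not established here. Of the probes, 46.3% to 51.0% were well above background on an array and 0 were saturated.

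**Figure D1:**
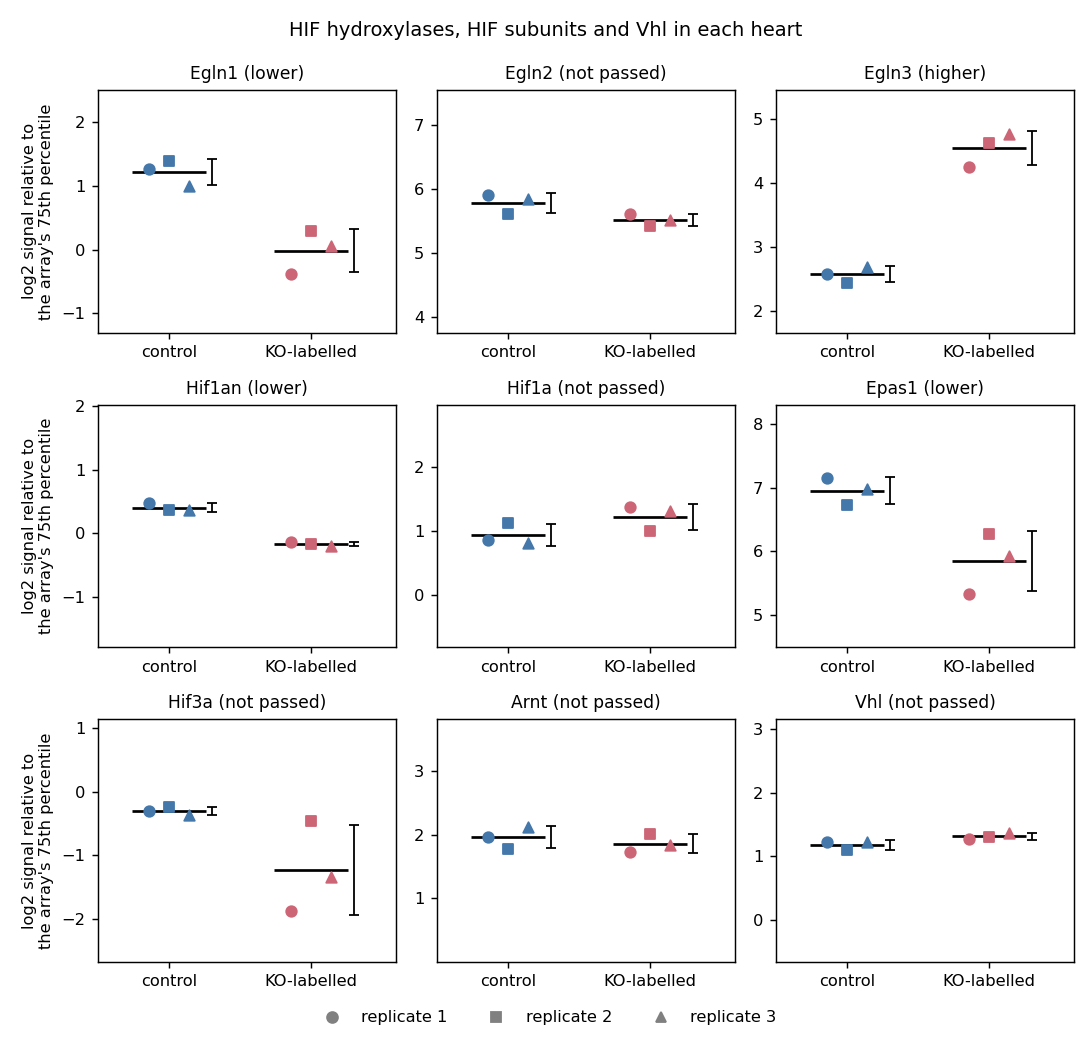
Scaled log2 signal (vertical axis, 0 being the 75th percentile of the array) of each of the 9 genes in the 3 control and 3 KO-labelled hearts, by the probe that represents the gene; the symbol shape gives the replicate, the line the group mean and the bar 1 SD. Every panel spans the same number of log2 units, and the groups are apart in the panels of Egln1, Egln3, Hif1an and Epas1, closer but without overlap for Hif3a and Vhl, and overlap for Egln2, Hif1a and Arnt.

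Egln1 encodes PHD2, the main oxygen sensor of the pathway, and its RNA fell in the KO-labelled hearts. Its single probe (NM_053207; the gene lies at chr8:124908587-124949254 on GRCm38.p6) had scanner signals of 355, 527 and 293 in the control hearts and 180, 228 and 206 in the KO-labelled hearts. After scaling these were 1.27, 1.39 and 0.99 against -0.39, 0.29 and 0.06. Every KO-labelled heart lay below every control heart, KO-labelled replicate 1 lowest. The mean KO-labelled level was 42.6% of control (log2 difference -1.23 ± 0.21 SE, 95% interval -1.72 to -0.74, adjusted p = 0.00652, limma, n = 3 each), so RNA read by this probe remained in every KO-labelled heart, well above background on 3 of 3 arrays. Where the probe lies relative to the deleted exons is not known here, and RNA left in cells without deletion cannot be told apart from RNA of a shortened transcript. In whole hearts, fewer cells of a type and less RNA per cell cannot be told apart either, for this gene or any below.

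Egln3 encodes PHD3, the other targeted hydroxylase, and its RNA was higher in the hearts labelled as lacking it. Its brighter probe (NM_028133; chr12:54178981-54203874) had scanner signals of 878, 1090 and 952 in the control hearts and 4462, 4597 and 5378 in the KO-labelled hearts. Its other probe had 426, 581 and 393 against 2127, 1998 and 2234. With both probes, the lowest KO-labelled heart was above the highest control heart before any scaling. The brighter probe had 2.57 ± 0.13 in control and 4.54 ± 0.27 in KO-labelled hearts (SD, n = 3 each), so the level rose 3.93-fold (1.98 ± 0.17 SE in log2 units, limma's adjusted p = 0.00165). The other probe had a log2 difference of 1.87 ± 0.13 SE (adjusted p = 0.00126, limma fitted to every kept probe). Neither probe had less signal in the KO-labelled hearts. The positions of the probes relative to the deleted part were not analysed here. In absolute size, 3.93% of all genes and features had a larger difference than Egln3 and 12.4% a larger one than Egln1.

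Egln2 encodes PHD1, the hydroxylase whose gene was not floxed. Its brighter probe (NM_053208; chr7:27158658-27166802) had log2 signals of 5.90, 5.60 and 5.85 in control and 5.61, 5.42 and 5.52 in KO-labelled hearts, and its other probe 3.26, 2.88 and 2.92 against 2.89, 2.68 and 2.81. The groups overlapped with both probes, through control replicate 2 and KO-labelled replicate 1. The difference did not pass (-0.27 ± 0.13 SE, 95% interval -0.58 to 0.04, adjusted p = 0.14, limma), and the lower edge of this interval is 0.668 times the control level. The size depended on scaling: it was -0.06 with quantile scaling, -0.04 with spike-in scaling and 0.06 with no scaling. There was no call for a rise of Egln2 under any of the 20 alternatives run, and a fall passed under array weights alone (adjusted p = 0.0048).

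Hif1an encodes factor inhibiting HIF, which was not targeted, and its RNA was lower by a small amount with little spread. Its single probe (NM_176958; chr19:44562854-44576274) had 0.48, 0.36 and 0.36 in control and -0.14, -0.17 and -0.20 in KO-labelled hearts. The KO-labelled hearts were nearly level with each other and lay below all controls, at 67.3% of the control mean (log2 difference -0.57 ± 0.11 SE, 95% interval -0.83 to -0.32, adjusted p = 0.00881, limma). The call rested on the scaling between arrays. Before scaling, its scanner signals were 206, 258 and 189 against 214, 166 and 172, which overlap, and with no scaling the log2 difference was -0.24 (adjusted p = 0.36). When spike-in controls were used to scale the arrays it was -0.34 (adjusted p = 0.189). With quantile, median and cyclic loess scaling it was -0.58, -0.55 and -0.47 and passed (adjusted p = 0.00675, 0.00897 and 0.0108, limma).

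Among the alpha subunits, Epas1 fell, while Hif1a and Hif3a did not pass. Hif3a had the widest spread of the 3 among the KO-labelled hearts (SD 0.71) and the narrowest among the controls (SD 0.06). Hif1a encodes HIF-1 alpha, the subunit present in most cells. Its single probe (NM_010431; chr12:73901324-73947554) had 0.85, 1.13 and 0.81 in control and 1.37, 0.99 and 1.31 in KO-labelled hearts. KO-labelled replicates 1 and 3 lay above every control, while replicate 2 lay below control replicate 2. The difference of 0.29 ± 0.16 SE did not pass (95% interval -0.08 to 0.67, adjusted p = 0.177, limma), and this interval reaches a rise of 1.59-fold.

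Epas1 encodes HIF-2 alpha, known for high expression in endothelial cells. Its brightest probe (NM_010137; chr17:86753864-86833410) had scanner signals of 21030, 21338 and 18563 in the control hearts and 9521, 14385 and 12074 in the KO-labelled hearts, all unsaturated. The scaled signals were 7.16, 6.73 and 6.98 against 5.34, 6.27 and 5.93. Every KO-labelled heart lay below every control heart, with replicate 1 lowest and replicate 2 nearest the controls. The mean was 46.4% of control (log2 difference -1.11 ± 0.25 SE, 95% interval -1.71 to -0.50, adjusted p = 0.0165, limma). The other probes of Epas1 gave smaller differences. One had 4.24, 3.83 and 4.22 against 3.43, 3.69 and 3.60 and passed (-0.52 ± 0.16 SE, adjusted p = 0.0394, limma fitted to every kept probe). The dimmest had 2.17, 1.65 and 2.06 against 0.95, 1.75 and 1.53, where KO-labelled replicate 2 lay above control replicate 2, and did not pass (-0.55 ± 0.24 SE, adjusted p = 0.117, same fit). The call of the brightest probe was lost without control replicate 1 (adjusted p = 0.0628) and without control replicate 3 (adjusted p = 0.0566).

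The Epas1 difference was set beside markers of endothelial cells. All 10 endothelial markers were well above background on every array, and in limma 0 of the 10 passed after adjustment, with 3 (Tek, Robo4 and Pecam1) at an unadjusted p under 0.05 and log2 differences of -0.69, -0.53 and -0.53. Their median difference was -0.16, which turned to 0.08 with spike-in scaling and 0.17 with no scaling, and was -0.33 without KO-labelled replicate 2. Over 20 alternatives, 0 to 1 of these markers rose and 0 to 4 fell, with 4 falls under array weights. Their summed signal, in units of the array's 75th percentile, was 210 to 243 in control and 179 to 274 in KO-labelled hearts, so the groups overlapped. Cdh5, the endothelial cadherin, had a difference of 0.03, and Cldn5, a tight junction gene, also had 0.03.

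Hif3a encodes the alpha subunit whose splice forms include inhibitors of the other alpha subunits. The probe that represents it (NM_016868; chr7:17030993-17062427) had -0.31, -0.25 and -0.37 in control and -1.87, -0.47 and -1.34 in KO-labelled hearts. The controls were close together and the KO-labelled hearts, although all lower, were spread over a range wider than the mean difference. That difference, -0.91 ± 0.33 SE, did not pass (95% interval -1.71 to -0.11 without adjustment, adjusted p = 0.0695, limma), and the KO-labelled hearts decided its size. Without replicate 2 of these it passed at -1.29 (adjusted p = 0.00789), and without replicate 1 it was -0.59 (adjusted p = 0.137). On every array, the other 2 Hif3a probes failed to stand well above background, and they were not tested.

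Arnt encodes the constitutive partner that every HIF alpha subunit needs to bind DNA. Its brighter probe (NM_001037737; chr3:95434367-95497240) had 1.97, 1.78 and 2.12 in control and 1.72, 2.01 and 1.84 in KO-labelled hearts, and its dimmer probe -1.50, -1.55 and -1.21 against -1.30, -1.52 and -1.0. The groups overlapped with both. The probes differed in sign (-0.10 ± 0.14 SE and 0.15 ± 0.18 SE, adjusted p = 0.604 in the gene fit and 0.537 in the fit to every probe, limma), and the 95% interval of the first, -0.44 to 0.24, runs from 0.737 to 1.18 times the control level. Vhl, by its single probe (NM_009507; chr6:113623994-113631634), had 1.23, 1.09 and 1.23 in control and 1.27, 1.30 and 1.37 in KO-labelled hearts. The 3 KO-labelled hearts all lay above the controls, yet by so little that the difference did not pass (0.13 ± 0.11 SE, 95% interval -0.13 to 0.39, adjusted p = 0.368, limma).

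**Figure D2:**
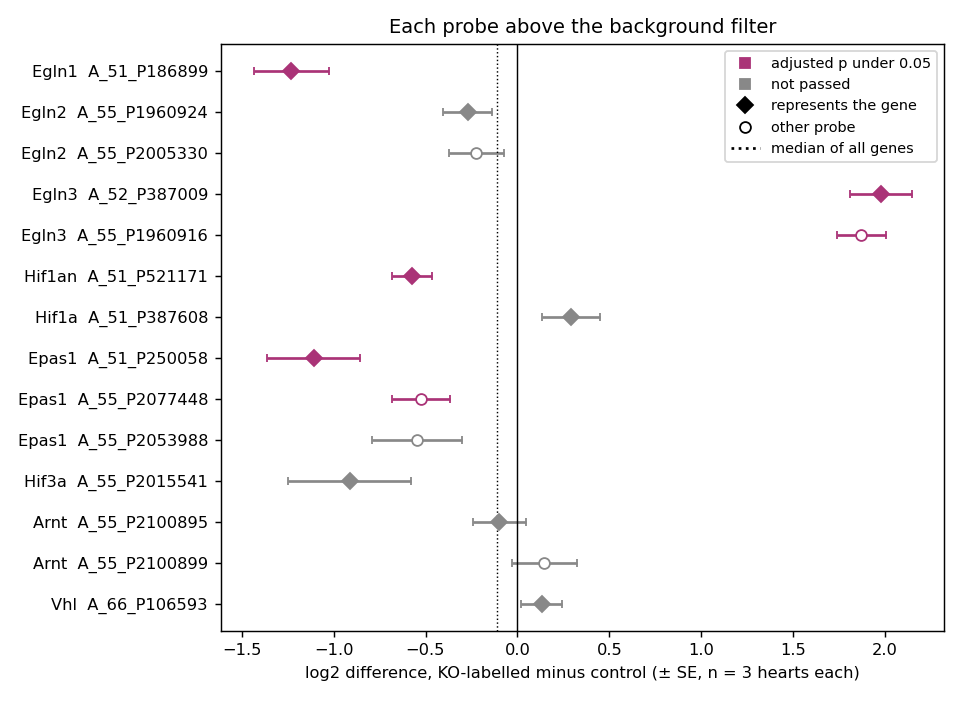
Log2 difference, KO-labelled minus control (horizontal axis, ± SE, 3 hearts each), of the 14 probes that passed the background filter, from limma fitted to every kept probe, of which 38.2% passed. Both Egln3 probes lie at 1.87 or above, the 3 Epas1 probes at -1.11, -0.52 and -0.55, and the Arnt probes on either side of 0; the dotted line marks the median of all genes and features.

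Ratios of 2 of these genes within a heart are not altered by a shift of a whole array, and 8 pairs were compared. With 3 hearts against 3, the smallest p of a 2-sided exact permutation test is 0.1, or 0.133 after adjustment over the 8 pairs, so no pair could pass 0.05. The log2 ratio of Egln3 to Egln1 was 1.31, 1.05 and 1.70 in control and 4.63, 4.34 and 4.71 in KO-labelled hearts, a 9.23-fold shift between the targeted genes (3.21 on the log2 scale, exact p = 0.1). The ratio of Egln3 to Egln2 shifted 4.75-fold and that of Egln1 to Egln2 by -0.96 on the log2 scale, each without overlap. Hif1an also lay lower relative to Egln2, by -0.30, at -5.42, -5.24 and -5.49 in control and -5.75, -5.59 and -5.72 in KO-labelled hearts. The groups did not overlap for any of these 4 hydroxylase pairs. The pairs share genes, however, and Egln1, Egln3 and Hif1an each separate the groups alone, as do 55.9% of all genes and features. The share over other gene pairs was not computed.

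Ratios to Hif1a were compared for the other subunits and Vhl. The log2 ratio of Epas1 to Hif1a was 6.31, 5.60 and 6.16 in control and 3.97, 5.28 and 4.63 in KO-labelled hearts, a difference of -1.40 without overlap (exact p = 0.1, n = 3 each). The difference came to -0.84 to -1.73 over 10 alternatives. The ratio of Hif3a to Hif1a differed by -1.20, with KO-labelled replicate 2 (-1.46) close to control replicate 2 (-1.38). The ratios of Arnt to Hif1a (-0.39, exact p = 0.2) and of Vhl to Hif1a (-0.16, exact p = 0.4) overlapped between groups. Among the KO-labelled hearts, replicate 1 had the lowest Egln1, Epas1 and Hif3a and the highest Hif1a, and replicate 2 the highest Egln1, Epas1 and Hif3a and the lowest Hif1a. Arnt had the order of Egln1 and Egln2 that of Hif1a, while Egln3, Hif1an and Vhl had other orders. How often such orders occur over all genes was not computed.

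**Figure D3:**
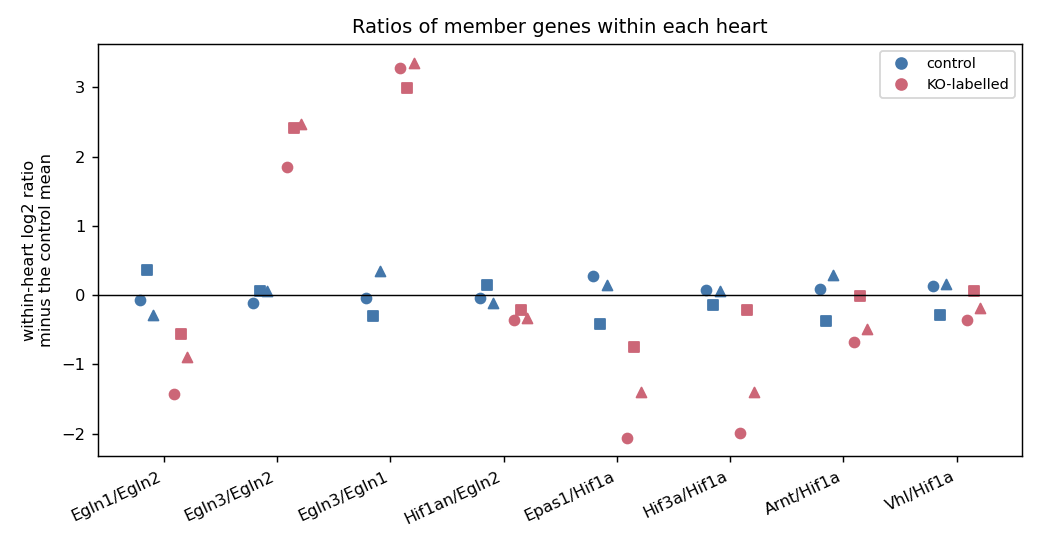
Within-heart log2 ratio of 8 pairs of genes (vertical axis, minus the mean of the 3 control hearts for that pair) in each control and KO-labelled heart; symbol shapes give replicates 1 (circle), 2 (square) and 3 (triangle). Egln3 over Egln1 stands 3.21 above the control mean, Epas1 over Hif1a at -1.40, and the groups overlap for Arnt and Vhl over Hif1a.

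Genes whose products work with VHL, the hydroxylases and the HIF subunits were counted beside the 39.1% of all genes and features that passed. Of 8 partners of the VHL ubiquitin ligase, 2 fell and 6 did not pass. The falls were the scaffold cullin gene Cul2 (-0.43) and the NEDD8-conjugating enzyme gene Ube2m (-0.47), and neither passed with cyclic loess, spike-in or no scaling, under which the list median turned from -0.14 to 0.04, 0.09 and 0.19 (with quantile scaling to 0.06). The adaptor genes Elob and Eloc, which join VHL to the cullin, had -0.01 and -0.18 and did not pass. Of 18 genes reported to act on HIF stability or on the hydroxylases, 4 rose, 2 fell and 12 did not pass, with a median of 0.03. The rises included Uchl1, a ubiquitin hydrolase gene (3.09), Mcm7, a replication helicase gene (1.28), and the chaperone gene Hsp90aa1 (0.91), and Wdr83, a scaffold gene, fell (-0.63). The ubiquitin ligase genes Siah1a and Siah2, known to act on PHD proteins, had -0.26 and -0.24 and did not pass. Of 16 coactivators and corepressors, Hdac1 rose (0.56), 3 fell, which were Cited4 (-0.83), Ncoa2 (-0.49) and Kat5 (-0.42), and 12 did not pass, among them the acetyltransferase genes Ep300 (-0.21) and Crebbp (-0.48). The falls of Ncoa2 and Kat5 did not pass under 10 of 20 alternatives each, and that of Cited4 under 8. With spike-in and with no scaling 0 of the 16 fell, and the list median turned from -0.19 to 0.04 and 0.14. Of 9 measured genes of the ARNT family and other bHLH-PAS proteins, the clock gene Arntl rose (1.92) and 8 did not pass, Per2 among them (-0.83, adjusted p = 0.0617, limma). The call of Arntl was lost when control replicate 1 (1.73, adjusted p = 0.0822) or 3 (1.98, adjusted p = 0.0646) was left out, with the replicate block (adjusted p = 0.0663) and without a filter (adjusted p = 0.0643). Its difference was 0.96 with normexp background correction. Without control replicate 1, and likewise without control replicate 3, 0 VHL ligase partners, 0 coactivators and 1 stability regulator fell.

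Other enzymes that use oxygen and 2-oxoglutarate, as the HIF hydroxylases do, were given by family. Over all genes and features, for comparison, 16.1% were higher and 23.0% lower. Of 11 genes listed as procollagen hydroxylases, most of which serve collagen synthesis, 5 rose and 6 did not pass, with a median of 0.63. Among the 11 is P4htm (-0.19, not passed), a transmembrane prolyl hydroxylase gene that does not serve collagen synthesis. The rises included P3h3 (1.24), Plod2 (1.08) and the beta subunit gene P4hb (0.90), whose product does not itself use oxygen and 2-oxoglutarate. P3h2 was well above background on 1 of 3 control arrays and entered through the KO-labelled group, so the size of its difference (1.86, or 0.69 with normexp, adjusted p = 0.0618) is uncertain, and its call was lost in 9 of 19 alternatives. Over the 10 genes above background on all 6 arrays, 4 rose, with a median of 0.55. Without control replicate 1 or control replicate 3, 2 of the 11 rose, and without KO-labelled replicate 3, 3 rose. Under other scalings the count of rises was 7 (quantile), 8 (cyclic loess), 2 (spike-in) and 7 (none). Of 24 measured genes of JmjC demethylases, TET enzymes and relatives, 4 fell and 20 did not pass. The falls were Kdm6b (-0.66), Kdm3b (-0.56), Tet3 (-0.51) and Kdm8 (-0.47), with a median of -0.21 that turned to 0.03 with spike-in scaling and 0.13 with no scaling, under both of which 0 fell. Without control replicate 1 or control replicate 3, 1 of the 24 fell, and 2 without KO-labelled replicate 3. Of 19 measured canonical HIF targets, 8 rose and 11 did not pass, with a median of 0.63. Those that rose included the glucose transporter gene Slc2a1 (1.22), the mitophagy receptor gene Bnip3 (1.08) and the glycolytic enzyme gene Pgk1 (0.98). Among the 11 that did not pass, Ddit4 (-0.59) and Ankrd37 (-0.25) had negative differences and the rest positive ones. The carbonic anhydrase gene Car9 passed under all 19 alternatives that measured it, but it was well above background on 1 of 3 control arrays. The size of its rise is therefore uncertain, at 5.04 as reported, 3.26 in the authors' deposited table and 3.01 with normexp. Car9 and Ero1a entered the list through the KO-labelled group, and over the 17 targets above background on all 6 arrays, 6 rose, with a median of 0.46. The count over 19 was 11 with quantile and cyclic loess scaling, 9 with spike-in scaling and 13 with none. Egln3, itself such a target, is not counted in that list, and P4ha1, P4ha2 and Kdm3a stand in it and in a family above.

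Markers of cardiomyocytes, fibroblasts and macrophages differed between the groups, and those of smooth muscle and pericytes went in both directions. Over all genes and features, 16.1% were higher and 23.0% lower. All 8 cardiomyocyte markers were well above background on every array. Of these 8, 7 fell, among them Pln (-1.92), which encodes phospholamban, and Tnni3 (-1.57), cardiac troponin I, with a summed signal of 7971 to 9087 times the array's 75th percentile in control and 5678 to 6976 in KO-labelled hearts. The remaining marker, Nppa, which encodes a natriuretic peptide, had a difference of 1.80 and did not pass (adjusted p = 0.0992, limma). Fewer of the 8 fell with quantile (3), cyclic loess (3), spike-in (4) and no scaling (2). Of 8 fibroblast markers, 6 rose, Postn most (4.63) (summed signal 410 to 757 against 1042 to 1174). The others, Dcn (-0.23) and Pdgfra (0.33), did not pass, and the groups overlapped for both. Of 7 measured macrophage markers, 6 rose, Cx3cr1 most (2.67) (72.8 to 112 against 143 to 238). Without control replicate 1, and likewise without control replicate 3, 3 markers each of cardiomyocytes (lower), fibroblasts (higher) and macrophages (higher) passed. Without KO-labelled replicate 3 these counts were 3, 3 and 4, and without KO-labelled replicate 1 they were 3, 4 and 5. Of 8 smooth muscle and pericyte markers, 2 rose and 4 fell (128 to 146 against 114 to 146). The rises were Cnn1 (3.06) and Cspg4 (0.92), and the falls included Abcc9 (-1.91) and Kcnj8 (-1.40). Of 6 erythroid markers, Hba-a2 passed at -0.57 (summed signal 2448 to 3784 against 2046 to 2548). That call was lost in 11 of 20 alternatives, and the difference was -0.04 with quantile scaling (adjusted p = 0.763). Of 3 measured lymphocyte markers, Cd3d passed at 3.37 (summed signal 4.31 to 5.51 against 4.86 to 10.9). Cd3d was well above background on 1 of 3 control arrays, its call was lost in 8 of 19 alternatives, and with normexp it had 1.20 (adjusted p = 0.122). Of 5 mesothelial markers, 0 passed in limma, and 0 had an unadjusted p under 0.05 (summed signal 6.70 to 44.0 against 16.02 to 24.0), while 3 passed as higher without control replicate 2. The part of these markers in the differences of Egln1, Egln3, Hif1an and Epas1 was not tested.

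**Figure D4:**
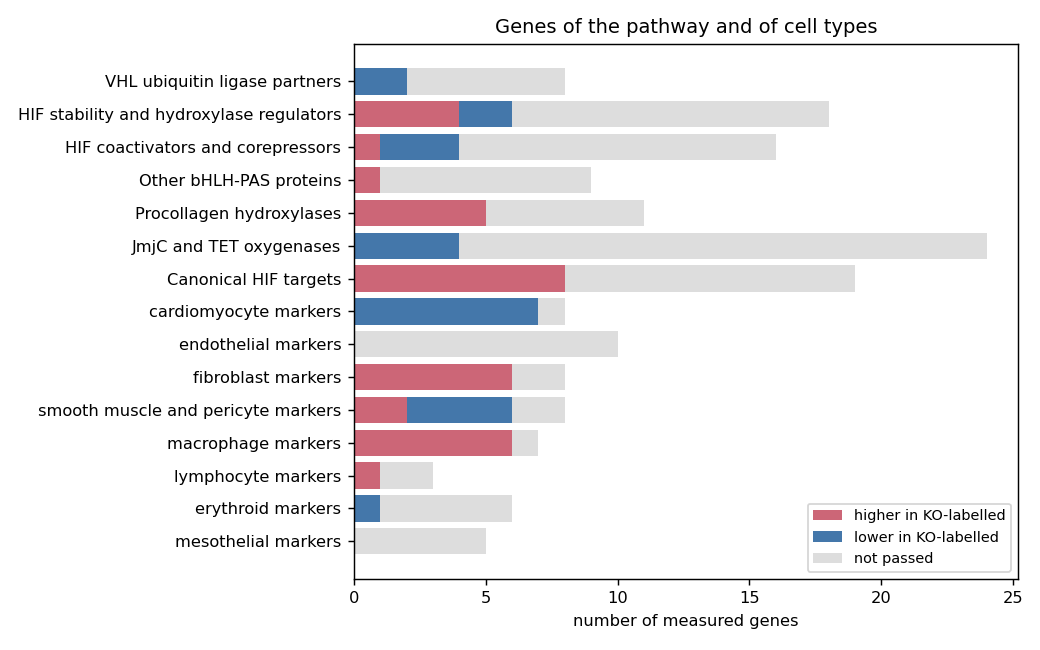
Number of measured genes (horizontal axis) that were higher, lower or did not pass in KO-labelled against control hearts (limma, adjusted p under 0.05) in 7 lists of the HIF pathway and related oxygenases and 8 lists of cell type markers. Over all genes and features 16.1% were higher and 23.0% lower. The procollagen hydroxylases and canonical HIF targets have rises and no falls, as do the other bHLH-PAS, fibroblast, macrophage and lymphocyte lists. Of the cardiomyocyte markers, 7 of 8 fell.

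The genes nearest in pattern to Egln1, Egln3 and Epas1 were found by the root-mean-square difference over the 6 hearts, each gene centred on its own mean. Nearest to Egln1 were Etfbkmt (0.10 on the log2 scale), Plxnb3 (0.11) and Prox1 (0.11). Etfbkmt encodes a methyltransferase of a mitochondrial flavoprotein, Plxnb3 a plexin and Prox1 a homeobox factor. Nearest to Egln3 were the histone H2A genes H2ac12 (0.08), H2ac10 (0.11) and H2ac15 (0.12), which are near-identical copies whose probes may read the same RNAs. Nearest to Epas1 were Kcnn2 (0.05), a calcium-activated potassium channel gene, Camk2a (0.06), a calmodulin-dependent kinase gene, and Syt3 (0.07), a synaptotagmin gene. As 55.9% of genes and features separate the groups, many genes lie near any pattern that does.

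The 9 differences were recomputed under 20 alternatives each. Egln1 and Egln3 passed under all 20, Egln1 between -0.90 and -1.38 and Egln3 between 1.86 and 2.31 on the log2 scale. Hif1an passed under 18 and Epas1 under 16. Hif3a passed under 2, Egln2 and Hif1a under 1 each (array weights), and Arnt and Vhl under 0 of 20, with unadjusted p of 0.509 and 0.271 in the limma fit reported here.

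**Figure D5:**
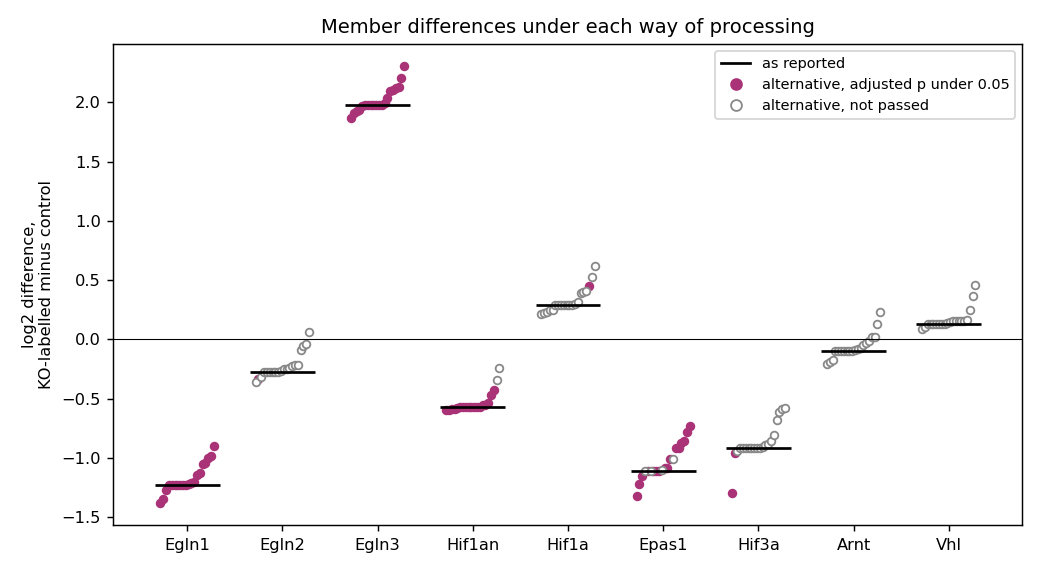
Log2 difference, KO-labelled minus control (vertical axis), of each of the 9 genes as reported (line) and under 20 alternatives (points, sorted by value; filled where adjusted p is under 0.05). All points of Egln1 and Egln3 are filled, those of Hif1an and Epas1 in part open, and those of Arnt lie on both sides of 0.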

How the data were processed

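The authors deposited 1 scanner file per heart, holding intensity values that are linear and background-subtracted. Per the file headers, the scanner software was Agilent Feature Extraction 11.0.1.1, and its flags for bright, saturated and outlying spots are other columns of the deposited files. They also deposited a table of log2 values, for which the submitters' processing notes name R 3.1.3. How they were normalized was not given in the sources used here, and the table served only as an alternative. In the labels, 1 field gives a column kit for hearts and another a kit for blood with removal of globin RNA.

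Outlier spots were left out, repeated spots averaged as log2 values and the array's 75th percentile subtracted. Of 55681 probes, 73 were lost as outliers. Names came from RefSeq accessions (26551 probes). A probe was kept if all arrays of 1 group read it well above background, and the brightest probe stands for its gene. The fits were made by limma 3.58.1 under R 4.3.3, adjusted by Benjamini-Hochberg at 0.05, and were tested on simulated data. Named genes were the 9 members, up to 4 passing genes of each list by smallest p (its 2 lowest by p if 0 or 1 passed) and the 3 nearest in pattern to Egln1, Egln3 and Epas1. Elob, Eloc, Siah1a, Siah2, Ep300, Crebbp, Cdh5, Cldn5, Pecam1, Ero1a and Nppa fall outside that rule and were chosen after their values were seen. The same holds for P4htm, Dcn, Pdgfra, Ddit4 and Ankrd37. Members and lists were chosen with earlier results of these data known. Alternatives changed the background correction (normexp on the median spot signal), scaling, source of values, filter, probe choice, variance model, replicate block and hearts.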

Additional observations from a re-analysis of the deposited data

How the results depend on the processing

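Alternatives were run 20 times for each of the 9 genes, 180 values in all, of which 175 kept the direction and 170 stayed on the same side of the threshold. The other directions were those of Arnt with cyclic loess (0.0226), spike-in scaling (0.13), the mean of its probes (0.0236) and no scaling (0.23), and of Egln2 with no scaling (0.0601). The alternative with no scaling was chosen after seeing the data. The 2 changes of filter, the fit to every probe, the variance with trend and the replicate block left each log2 difference as reported. Only their p-values could move, so their directions were fixed in advance. The same holds for the mean of a gene's probes where 1 probe was kept. The 78 values of the gene pairs all kept their direction under the alternatives run. For the pairs whose groups do not overlap, leaving out a heart could not turn the direction, so those values are no check of it. The count of genes and features called, 7817, was 4345 without a filter on dim probes, which tests more features, 13713 with array weights, whose fit stopped before converging, and 4862 with the replicate block. Leaving out each heart gave 3987 to 8672, with 3987 without control replicate 1, 4123 without control replicate 3 and 5142 without KO-labelled replicate 3; the cause was not tested. The 4 called members became 7 with array weights, and 3 to 5 when a heart was left out. Epas1 was the called member lost with the replicate block (adjusted p = 0.058) and without a filter (adjusted p = 0.0521). Deviations of same-numbered hearts correlated at -0.15, -0.12 and -0.08, so no shared deviation of hearts with the same number was seen. Whether the numbers pair the hearts by design cannot be told from these values. Of the called genes, 41.1% were higher as scaled here, 55.3% with cyclic loess, 57.3% with spike-in scaling and 67.1% with no scaling, while the median over all genes went from -0.11 to 0.02, 0.12 and 0.22 in log2 units. Precision is limited by having 3 arrays in each group.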
